A study of Mus musculus with 4 samples.

Results

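Open chromatin was examined at the 10 mouse genes that encode the receptors and the signalling Smads of the bone morphogenetic protein (BMP) pathway, in intestinal organoids before BMP2 exposure and after 72 h of it. The genes are the type I receptors Bmpr1a, Bmpr1b and Acvr1, the type II receptors Bmpr2, Acvr2a and Acvr2b, the receptor-activated Smads Smad1, Smad5 and Smad9, and the common partner Smad4. They are 10 of 21887 protein-coding genes in the RefSeq table used, and the set is defined by role in the pathway. Every peak whose midpoint lay in one of these genes or within 50 kb of it was taken, which gave 48 of 35857 peaks at 0 h and 66 of 41343 peaks at 72 h. The method, ATAC-seq, lets the Tn5 transposase cut into open DNA, and peaks mark where cuts accumulate.

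The organoids came from crypts of the jejunum of C57BL/6J mice, and 30000 cells went into each library. Organoids of the 0 h group stayed in a medium with CHIR99021 (an inhibitor of GSK3, which raises Wnt signalling), valproic acid (an inhibitor of histone deacetylases), epidermal growth factor, Noggin (a secreted protein that binds BMPs and keeps them from their receptors) and R-spondin. For the 72 h group, CHIR99021, valproic acid and Noggin were withdrawn and BMP2 was added at 100 ng/mL, so the effect of BMP2 and that of the withdrawals cannot be told apart. Epidermal growth factor and R-spondin were common to both groups. Each group is 1 library; libraries of 24 and 48 h were not analysed here. The number of animals behind a library is not given in the sources used here.

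A BMP dimer binds a pair of type I and a pair of type II receptor chains at the cell surface. The type II kinases phosphorylate the type I kinases, and these phosphorylate Smad1, Smad5 and Smad9. The phosphorylated Smads join Smad4, enter the nucleus and bind DNA at GC-rich elements and at GTCT boxes. In the intestine, BMP ligands from the mesenchyme act mainly on villus cells, while antagonists such as Noggin and gremlins shield the crypt. The 10 genes encode the chain from the cell surface to the nucleus.

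The deposited files give only the place of each peak and whether it was called at a p-value threshold of 1e-05 (lenient) or also at 1e-10 (strict). They hold no read counts or peak heights, so depth is unknown and the strength of a site is known only as strict or lenient. With 1 library per group there is no replicate error and no p-value. Intervals below are exact Clopper-Pearson 95% intervals, which cover counting error only. Over the whole genome the 72 h library had 1.15 times as many lenient peaks as the 0 h library, and the main counts below are given beside their value over all peaks or genes. As a check of the tissue label, peaks within 1 kb of a gene end were sought at cell type markers. All 8 epithelial markers (Epcam, Cdh1, Vil1, Cdx2, Krt8, Krt18, Hnf4a and Cdx1) had one in both libraries. Stromal markers had one at 1 of 8 at 0 h (Col1a1) and 2 of 8 at 72 h (Col1a1 and Myh11), immune markers at 1 of 6 in each (Itgam), and endothelial markers at 1 of 4 at 0 h (Kdr) and 0 of 4 at 72 h. Among those without a gene-end peak in either library were the defining markers Ptprc, Pecam1, Pdgfra and Dcn.

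All 10 genes had a peak within 1 kb of a start or end in both libraries, and at 8 of them it was strict at both times. The 8 were Bmpr1a, Acvr1, Bmpr2, Acvr2a, Acvr2b, Smad1, Smad5 and Smad4. Over all protein-coding genes, 49.9% had a lenient peak within 1 kb of a gene end in both libraries, and 43.3% had a strict one. At Bmpr1b and Smad9 the start region was called in both libraries, but only leniently in each. Strict peaks thus lay at the start of most of the 10 genes, and lenient ones at a type I receptor and a receptor Smad. For Smad4 the strict peak lay at its higher-coordinate end, which cannot be called a start because its strand is not tabulated. At none of the 10 was the region called in one library and not in the other.

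Sequences before a tabulated start are shown for 5 of the genes because they range from windows under strict peaks to a window under none. These are the 250 bases before a RefSeq transcription start (GRCm38.p6, the assembly that mm10 denotes), 5′ to 3′, with any match to 9 searched motifs in capitals. At Bmpr1a and Smad1 all 250 bases lay under a peak in both libraries and were overlapped by a strict one. At Bmpr2, 210 bases lay under a 0 h peak and none under a 72 h peak. At Smad9 all 250 bases lay under a lenient peak in both. The Bmpr1b sequence precedes the most upstream of its 3 tabulated starts and lay under no peak, as did the windows of the other starts. It is not the region called at the 5′ end of that gene, which lies apart at chr3:142168904-142169630.
Bmpr1a (chr14:34502547-34502796, minus strand): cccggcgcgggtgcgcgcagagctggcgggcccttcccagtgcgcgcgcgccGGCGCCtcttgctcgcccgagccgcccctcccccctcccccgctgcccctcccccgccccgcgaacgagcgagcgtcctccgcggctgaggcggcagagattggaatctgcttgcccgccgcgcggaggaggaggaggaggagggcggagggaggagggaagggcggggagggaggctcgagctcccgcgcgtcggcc
Smad1 (chr8:79399429-79399678, minus strand): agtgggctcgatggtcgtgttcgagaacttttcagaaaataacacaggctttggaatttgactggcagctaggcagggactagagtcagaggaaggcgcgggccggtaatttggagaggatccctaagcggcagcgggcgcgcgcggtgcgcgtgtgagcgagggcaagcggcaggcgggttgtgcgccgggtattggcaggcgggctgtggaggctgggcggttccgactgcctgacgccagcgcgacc
Bmpr2 (chr1:59764029-59764278, plus strand): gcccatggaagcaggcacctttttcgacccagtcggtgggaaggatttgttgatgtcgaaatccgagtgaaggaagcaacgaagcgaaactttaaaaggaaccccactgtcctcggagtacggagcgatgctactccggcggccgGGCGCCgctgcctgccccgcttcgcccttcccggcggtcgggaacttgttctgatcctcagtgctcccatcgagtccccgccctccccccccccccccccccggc
Smad9 (chr3:54755332-54755581, plus strand): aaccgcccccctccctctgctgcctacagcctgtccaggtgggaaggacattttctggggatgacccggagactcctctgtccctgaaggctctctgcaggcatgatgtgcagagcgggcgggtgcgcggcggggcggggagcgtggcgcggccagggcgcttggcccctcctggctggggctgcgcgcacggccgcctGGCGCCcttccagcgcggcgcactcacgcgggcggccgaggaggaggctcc
Bmpr1b (chr3:141982265-141982514, minus strand): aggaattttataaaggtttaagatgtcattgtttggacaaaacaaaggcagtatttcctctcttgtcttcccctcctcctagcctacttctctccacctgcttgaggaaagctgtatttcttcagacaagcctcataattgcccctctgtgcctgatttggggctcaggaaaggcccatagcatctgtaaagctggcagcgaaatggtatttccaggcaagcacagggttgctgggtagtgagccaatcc

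The table held 13 such windows for 9 of the genes; Smad4 has no entry. At 7 of the 9 genes a window lay under a peak in both libraries (50.1% of 17492 protein-coding genes with a window), and at 6 the overlapping peak was strict in both (44.2%). The 6 were Bmpr1a, Acvr1, Acvr2a, Acvr2b, Smad1 and Smad5. At 1 gene, Bmpr2, a window lay under a peak at 0 h only (3.72%), and at none at 72 h only (1.82%). Windows under strict peaks of both libraries had a median of 18.0 CpG dinucleotides over the genome and windows under no peak a median of 3.00. The Acvr2a window held 49 CpGs and the Acvr1 window 46. Bmpr1a held 36, Smad1 25, Smad9 and Acvr2b 24 each, and Bmpr2 22. The 3 Smad5 windows held 22, 27 and 27, and the first of them, with 22, lay under no peak. The 3 Bmpr1b windows, also under no peak, held 1, 5 and 5.

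The motif GGCGCC, a GC-rich element that Smads can bind, was present in 4 of the 13 windows: at Bmpr1a, Bmpr2, Smad9 and the middle of 3 Smad5 starts. Counted from the start, with negative positions upstream, it begins at -198 at Bmpr1a, -105 at Bmpr2, -51 at Smad9 and -19 at Smad5. It occurs in 9.59% of all 32851 windows and in 19.5% of the 9757 windows under strict peaks of both libraries. Both strands were searched, and this motif reads the same on each. AGATAA, the core that GATA factors bind, was found once, in the most downstream Smad5 window (9.99% of all windows). None of the 13 windows held GTCTAGAC (a palindromic Smad box; 0.167%), the bipartite BMP Smad element (0.511%), TGANTCA (AP-1; 6.75%), ATCAAAG (TCF/LEF; 3.21%), CAAAGTCCA (HNF4; 0.384%), TTTATNG (CDX; 9.81%) or GGGCGTGG (KLF; 4.79%). No matches of different motifs overlapped. A match is a stretch of letters and does not show that a factor bound there.

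**Figure D1:**
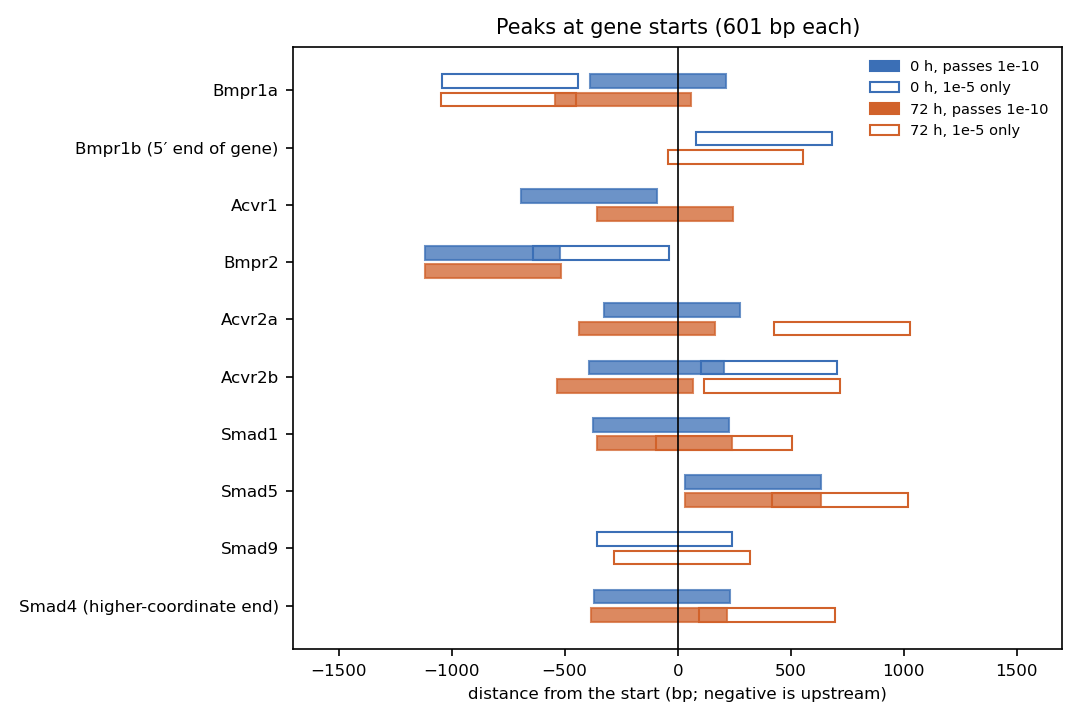
Peaks at the start of each of the 10 genes; the horizontal axis is the distance in bp from a tabulated RefSeq start (for Smad5 the first), from the 5′ end of the gene for Bmpr1b, and from the higher-coordinate gene end for Smad4, whose strand is not tabulated. Each bar is one peak, blue at 0 h and orange at 72 h, filled where it passed 1e-10 and open where it passed 1e-05 only; 8 genes have a filled bar in both colours, and Bmpr1b and Smad9 have open bars only.

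A summit here is the midpoint of a peak, and in the start regions the nearest summits of the libraries lay between 1 and 337 bp apart. At Smad5, whose product is one of the receptor-activated Smads, the strict summit lay 333 bp downstream of the first start at 0 h and 332 bp at 72 h. At Smad1 it lay 74 bp upstream at 0 h and 59 bp upstream at 72 h. The strict Bmpr2 summit was the farthest from its start, 820 bp upstream at 0 h and 816 bp at 72 h. A second, lenient Bmpr2 summit 341 bp upstream was called at 0 h and had no separate call at 72 h, which is why the printed Bmpr2 window lay under a 0 h peak and not under a 72 h one. Acvr1, which encodes the receptor also called ALK2, showed the largest of these distances, from 392 bp upstream at 0 h to 55 bp upstream at 72 h; an end of the neighbouring gene Upp2 also lies within 1 kb of this site. At Smad4 the strict summit lay 71 bp outside the gene end at 0 h and 82 bp outside it at 72 h. Over the 44 0 h peaks of shared sites at the 10 genes, the median distance to the nearest 72 h summit was 41.0 bp, and 33 lay within 100 bp. Over all 28539 such 0 h peaks the median was 29.0 bp and 23694 lay within 100 bp.

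Extra lenient summits beside a strict one were called at 72 h and not at 0 h at 4 genes: Acvr2a (728 bp downstream of the start), Smad1 (205 bp downstream), Smad5 (716 bp downstream of the first start) and Smad4 (394 bp inside the gene end). The Acvr2a one overlapped no 0 h peak, whereas the others overlapped the strict 0 h peak of the same site. At Bmpr1a and Acvr2b, each with a strict and a lenient summit, both were called in each library. Bmpr2 went the other way, since its lenient summit 341 bp upstream had a separate call at 0 h and not at 72 h. Among shared flank sites, those at Exog and Rfxap held more summits at 0 h, and that at Mbd5 more at 72 h. The 72 h library had 1.15 times as many lenient peaks over the genome. How often such extra summits occur at other genes was not counted.

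Sites called in 1 library only were found mostly away from the starts, and more of them at 72 h than at 0 h. Over the genome too, the share of peaks of 1 library was lower within 1 kb of gene ends than farther away. Merged where they overlapped, the peaks of the 10 genes formed 58 sites. Of these, 33 were shared, 21 were found at 72 h only and 4 at 0 h only. Among the 25 sites of 1 library, 84.0% (63.9 to 95.5) were of the 72 h library, beside 63.2% (62.6 to 63.9) of all 19134 such sites in the genome. In peaks, 21 of 66 at 72 h had no overlapping 0 h peak, which is 31.8% (20.9 to 44.4) and near the 30.6% over the genome. At 0 h, 4 of 48 peaks had no overlapping 72 h peak. That is 8.33% (2.32 to 20.0), beside 20.7% over all 0 h peaks, which lies just above the interval. Over the 0 h peaks near any protein-coding gene, chosen by the same 50 kb window, the share was 19.7%, which lies within the interval. Where at least 50% of a peak had to be overlapped for it to be shared, the share near the 10 genes was 16.7% (7.48 to 30.2). The 20.7% and 19.7% are at 1 bp overlap and are not its counterpart. A genome share at 50% overlap is not given here. Of the 0 h peaks of the 10 genes, 52.1% (37.2 to 66.7) lay within 1 kb of a gene end. The share was 43.0% near any protein-coding gene and 39.5% over the genome, both within the interval. Any bearing of this placement on the 0 h-only share was not tested. Farther than 1 kb from gene ends, 4 of 23 0 h peaks were found at 0 h only, 17.4% (4.95 to 38.8). The genome share of 28.3% lies within that interval. For 72 h peaks farther than 1 kb from gene ends the share was 50.0% (33.8 to 66.2), beside 43.0%. Within 1 kb of gene ends the 72 h-only share was 3.85% (0.0973 to 19.6), beside 6.31% over the genome. The 0 h-only share there was 0% (0 to 13.7), beside 9.17%.

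**Figure D2:**
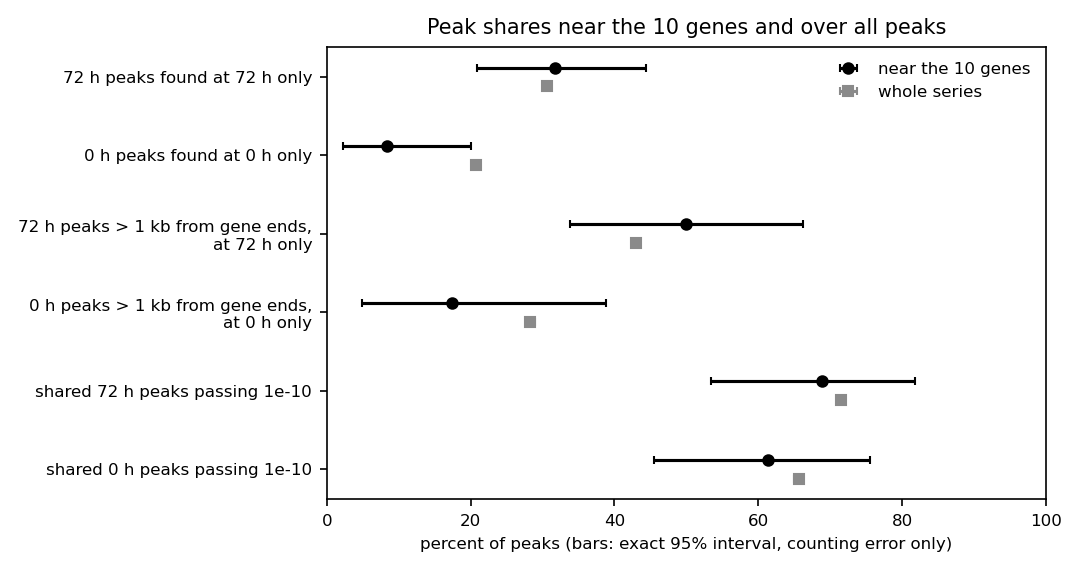
Shares of peaks near the 10 genes (black circles) and over the whole series (grey squares), with the percent of peaks on the horizontal axis and exact 95% intervals as bars. The share of 72 h peaks found at 72 h only near the genes, 31.8%, is close to the genome's 30.6%. The share of 0 h peaks found at 0 h only is 8.33%, with an interval of 2.32 to 20.0. The genome's 20.7% lies just above that interval. The share over 0 h peaks near any protein-coding gene, 19.7% and not drawn, lies just within it.

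By gene, 9 of 10 had at least 1 lenient peak found at 72 h only, all but Smad9, beside 64.4% of 18256 protein-coding genes with a peak in the same window. The 10 genes are long, 39.4 to 332 kb with a median of 79.1 kb, and the genes with a peak have a median of 19.8 kb. Among 5137 genes of 39.4 to 332 kb the share was 68.4%. A peak found at 0 h only was present at 3 of 10, Bmpr1a, Acvr2b and Smad5, beside 52.2% of all such genes and 54.0% of those of like length. At 7 of the 10 there were more peaks of 72 h only than of 0 h only, beside 44.4% of genes and 48.4% of those of like length, and at none were there fewer. Acvr2b and Smad5 had 1 of each, and Smad9 had neither.

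**Figure D3:**
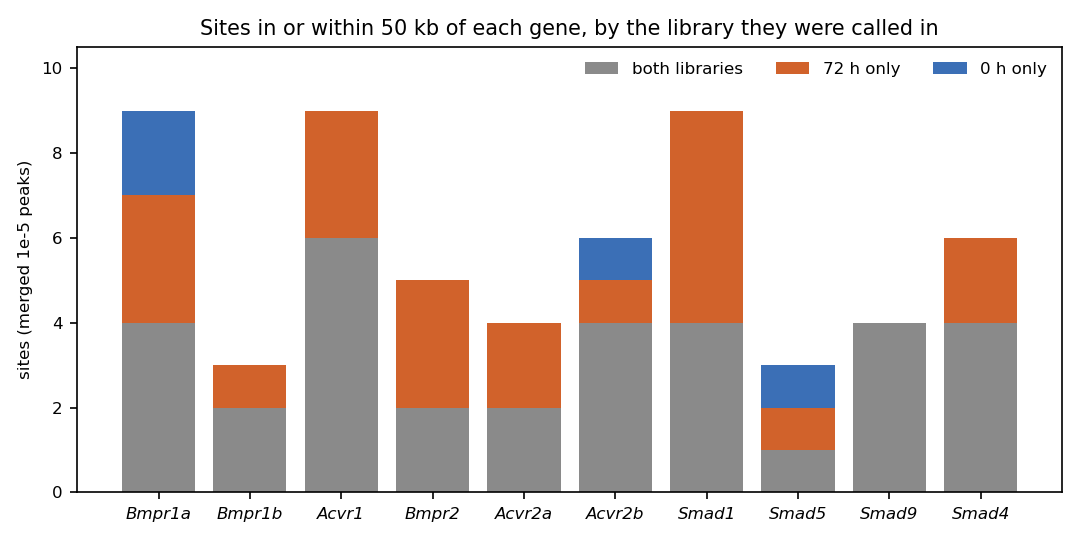
Number of sites (merged 1e-05 peaks) in or within 50 kb of each gene on the vertical axis, stacked by whether a site was called in both libraries (grey), at 72 h only (orange) or at 0 h only (blue). Smad1 has the most 72 h-only sites, 5 of its 9, and Smad9 has shared sites only.

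Among the type I receptors, Bmpr1a and Acvr1 each had 9 sites and Bmpr1b had 3. Bmpr1a, the main type I receptor for BMP2 and BMP4, had 9 peaks at 0 h and 10 at 72 h, with 4 shared sites, 3 of 72 h only and 2 of 0 h only. It alone of the 10 had strict peaks of 1 library in both directions. The 72 h one (chr14:34505176-34505776) lay 2.14 kb upstream of the gene, close to the start region shown above. The 0 h one (chr14:34540463-34541063) lay 37.4 kb upstream, inside the neighbouring gene Ldb3, and a lenient 0 h-only peak lay beside it at 38.7 kb. Inside Bmpr1a, 2 lenient sites were called at 72 h and none at 0 h apart from the start.

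Acvr1 had 7 peaks at 0 h and 10 at 72 h, and all of the 0 h ones were shared. Inside the gene its sites were of 4 kinds. One shared site was strict in both libraries (chr2:58532123-58532793) and one was lenient in both. A further pair, chr2:58484167-58484775 and chr2:58546169-58546838, was lenient at 0 h and strict at 72 h, with summits 8 and 69 bp apart between the libraries. The remaining 3 were lenient sites of 72 h only. Bmpr1b, a close relative of Bmpr1a and the longest of the 10 genes at 332 kb, had 2 peaks at 0 h and 3 at 72 h, or 0.462 and 0.694 per 100 kb of gene and flank. At the other 9 genes the density was 1.06 to 4.98 per 100 kb at 0 h and 2.15 to 6.21 at 72 h. The strict Bmpr1b site lay 22.1 kb upstream of the gene and was shared.

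The type II receptors had 15 sites in all, of which 8 were shared, 6 of 72 h only and 1 of 0 h only. Bmpr2, the type II receptor most selective for BMPs, had 5 peaks at 0 h and 7 at 72 h. Its body of 114 kb held no peak at either time beyond the start region, and its 3 lenient 72 h-only sites all lay in the flanks. Acvr2a, which binds activins as well as BMPs, had 2 peaks at 0 h and 5 at 72 h. One of the 72 h-only peaks was strict and lay inside the gene, 27.7 kb from its start (chr2:48841533-48842133). Acvr2b, its paralogue, had 7 peaks at 0 h and 6 at 72 h, the only receptor gene with fewer at 72 h. A site inside it (chr9:119430209-119430852) was lenient at 0 h and strict at 72 h, a lenient site 24.4 kb from the start was called at 72 h only, and a lenient 0 h-only peak lay 49.3 kb upstream, just inside the 50 kb limit.

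The receptor-activated Smads differed among themselves. Smad1 had 4 peaks at 0 h and 10 at 72 h. All 4 of the 0 h peaks were shared, and 5 of the 72 h peaks were of 72 h only. The strict one among these (chr8:79362365-79362965) lay inside the gene, 36.8 kb from the start, next to a shared lenient site. A lenient one lay inside the gene 16.6 kb from the start, one 5.94 kb upstream, and a pair 36.5 and 40.5 kb beyond the other end of the gene. Smad5 had 2 peaks at 0 h and 3 at 72 h and only 1 shared site, the start. Its strict 72 h-only peak (chr13:56678017-56678617) lay 24.7 kb upstream, inside the non-coding RNA gene Gm32965, and its lenient 0 h-only peak 44.8 kb upstream. The body of Smad5 held no peak beyond the start region in either library.

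Smad9, also called Smad8 in some of the literature, had no site of 1 library. It had 6 peaks at 0 h and 5 at 72 h, all shared. A site inside the gene (chr3:54797060-54797677), 41.9 kb from its lower-coordinate end, was strict at 0 h and lenient at 72 h, with summits 17 bp apart. It was the only shared site of the 33 that passed the strict threshold at 0 h and not at 72 h. Smad4, which carries signals of both the BMP and the TGF-beta arm, had 4 peaks at 0 h and 7 at 72 h. All 4 of the 0 h peaks were shared. A site 40.5 kb from the gene, inside Elac1, was lenient at 0 h and strict at 72 h, and lenient 72 h-only sites lay inside Smad4, 30.8 kb from its lower-coordinate end, and 42.8 kb outside it.

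**Figure D4:**
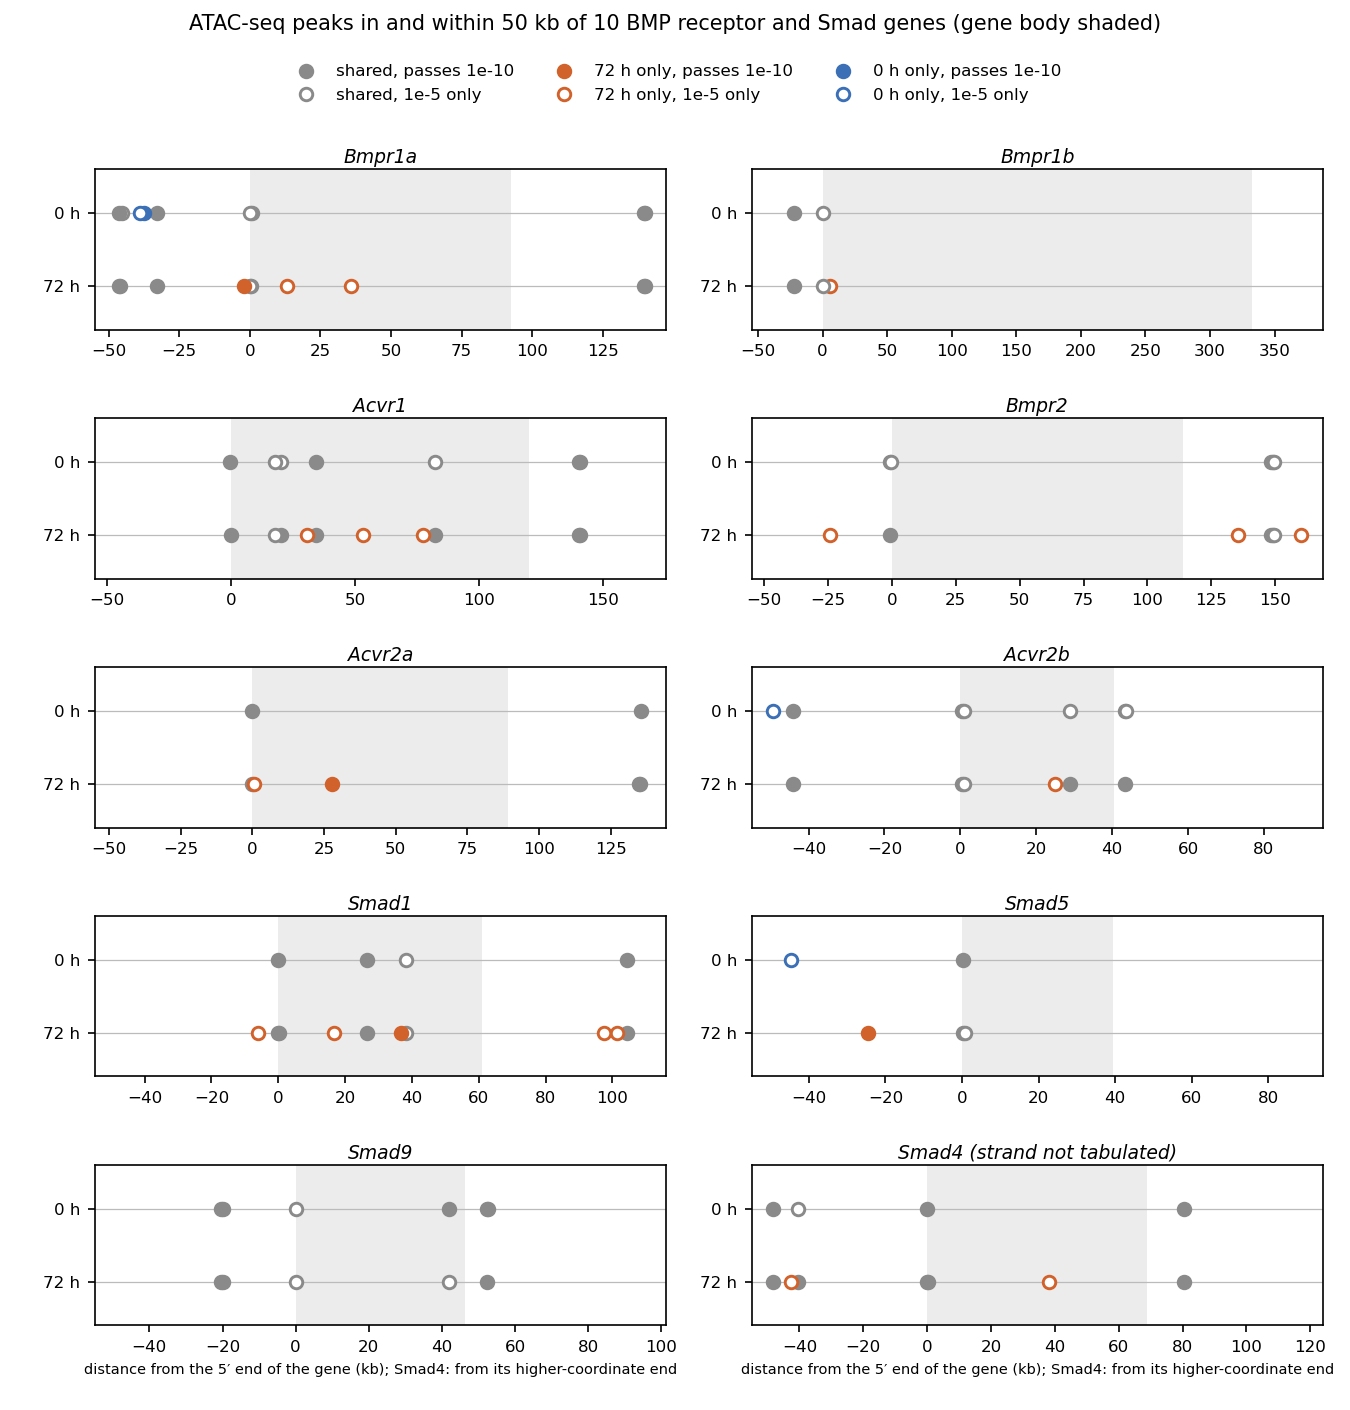
Peak midpoints in and within 50 kb of each gene, with distance from the 5′ end of the gene in kb on the horizontal axis (for Smad4, from its higher-coordinate end) and the libraries on separate lines; the gene body is shaded. Filled points passed 1e-10, open points 1e-05 only; grey points were shared, orange points were of 72 h only and blue points of 0 h only, and nearby points overlap. The orange points lie inside genes and in flanks, while all 4 blue points lie in flanks, between 37.4 and 49.3 kb from the gene.

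Sorted by place, the 58 sites fell into 11 at a start or gene end, 19 inside a gene and 28 in the flanks. Inside the genes, 11 of 19 sites were of 72 h only, at 7 genes, and none was of 0 h only. That is 57.9% (33.5 to 79.7) and 0% (0 to 17.6). Among 15757 sites inside any protein-coding gene and over 1 kb from gene ends, 36.6% were of 72 h only and 17.7% of 0 h only. Counting also the shared sites that were strict in 1 library alone, 14 of 19 were called at 72 h only or more strictly at 72 h (73.7%, 48.8 to 90.9), beside 46.1%. In the other direction there was 1 of 19, the Smad9 site (5.26%, 0.133 to 26.0), beside 22.2%. The sites are not independent, since Acvr1 alone gives 3 of the 11 and 5 of the 14. The 72 h library had more peaks over the whole genome, and how far that carries into these counts was not tested.

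The flanks held 15 shared sites, 9 of 72 h only and 4 of 0 h only. Of the shared flank sites, 7 lay within 1 kb of an end of another protein-coding gene, and all 7 were strict in both libraries: at Fam117b, Mbd5, Xylb, Exog, Mmaa, Rfxap and the shared region of Alg5 and Exosc8. No flank site of 1 library lay at the end of another gene. The 50 kb window therefore brings in end regions of neighbours, whether their starts or their 3′ ends, and these were among the sites that did not differ in threshold. Over the genome, 6.31% of 72 h peaks and 9.17% of 0 h peaks within 1 kb of gene ends were of 1 library.

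Among the 33 shared sites, 24 were strict in both libraries (72.7%, 54.5 to 86.7), beside 63.2% of all 23932 shared sites. At 4 sites the strict threshold was passed at 72 h alone, 12.1% (3.40 to 28.2) beside 14.2%, and at 1 at 0 h alone, 3.03% (0.0767 to 15.8) beside 8.53%. The 4 were those named above at Acvr1 (a pair), Acvr2b and Smad4. Both genome values lie within the intervals. By peak, 27 of 44 shared 0 h peaks were strict (61.4%, 45.5 to 75.6) and 31 of 45 shared 72 h peaks (68.9%, 53.4 to 81.8), beside 65.6% and 71.5%.

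Strict peaks of 1 library only are those that passed 1e-10 in one library and overlapped not even a lenient peak of the other. At 72 h there were 4, at Bmpr1a, Acvr2a, Smad1 and Smad5, and at 0 h 1, at Bmpr1a. These are the 5 peaks of the 10 genes that the authors listed as enriched in one library. Over the genome that list holds 4534 of 4535 such peaks at 72 h and 1274 of 1275 at 0 h, so the match is no separate evidence. The share of genes with one at 72 h, 4 of 10, is near the background of 33.3% of all genes and 38.0% of genes of like length, and 1 of 10 at 0 h is near 13.0% and 13.9%. Of all peaks, 11.0% at 72 h and 3.56% at 0 h were strict and of 1 library; near the 10 genes they were 4 of 66 and 1 of 48. Of the 21 72 h-only peaks, 19.0% (5.45 to 41.9) were strict, beside 35.8% of all 72 h-only peaks, which lies within the interval. Most of the extra 72 h peaks at the receptors and Smads thus passed the lenient threshold alone, as did most 72 h-only peaks over the genome.

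Other genes of the pathway were counted from fixed lists of 30 genes. The list of the TGF-beta and activin arm holds related receptors together with Smad2 and Smad3. This list is not confined to receptors that signal through Smad2 and Smad3. Of its 9 genes, 7 had a strict gene-end peak in both libraries (43.3% of all protein-coding genes), 7 a 72 h-only peak (64.4% of genes with a peak in range) and 7 a 0 h-only one (52.2%). In peaks, these genes had 15 of 66 of 72 h only and 14 of 65 of 0 h only, beside 30.6% and 20.7% of all peaks. Counts of these lists are sums over genes, so a peak within 50 kb of more than 1 gene counts at each. At the BMP receptors and their Smads, where no peak lay near more than 1 of the genes, the numbers were 21 of 66 and 4 of 48. Strict 72 h-only peaks lay at Tgfbr2 (the type II receptor for TGF-beta; chr9:116175646-116176246, 0.583 kb outside the gene), Amhr2 (the receptor for anti-Müllerian hormone), Smad2 and Smad3, and a strict 0 h-only peak at Acvr1b, an activin receptor, which had 6 lenient or strict peaks of 0 h only and 1 of 72 h only. At Smad2 the 2 strict 72 h-only peaks overlapped inside the gene, and at Smad3 there was one inside and one 42.7 kb outside.

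Of 5 BMP co-receptor genes, 3 had a gene-end peak in both libraries (49.9% of all protein-coding genes), and at 1, Neo1, it was strict in both (43.3%). In peaks, they had 5 of 31 of 72 h only and 12 of 34 of 0 h only, beside 30.6% and 20.7% of all peaks. Summed over the 30 genes of the 4 lists, with a peak counted at each gene it lay near, the numbers were 32 of 158 and 36 of 158. Hjv, which encodes hemojuvelin, had 3 strict peaks of 0 h only and 2 of 72 h only, all 22.2 to 45.9 kb outside the gene. Of the co-receptor peaks, Hjv alone gave 8 of the 12 of 0 h only and 15 of the 34 at 0 h. It gave 2 of the 5 of 72 h only and 10 of the 31 at 72 h. Eng (endoglin) had 1 of 0 h only, and Neo1 (neogenin, a receptor for repulsive guidance molecules) 1 of 72 h only. All 3 inhibitory genes, Smad6, Smad7 and Bambi, had a strict gene-end peak in both libraries, beside the same 43.3%, and Smad7 had 1 strict 72 h-only peak 10.2 kb outside the gene. Of 13 ligand genes, 12 had a peak in range, beside 18256 of 21887 protein-coding genes. A strict gene-end peak in both libraries was present at 5, also beside 43.3%. Bmp2 had 2 strict 72 h-only peaks, 35.7 and 48.1 kb outside the gene. Bmp7 had 1 strict peak in each direction, Bmp8b 1 of 0 h only and Bmp10 1 of 72 h only. Gdf2, a ligand made mainly in the liver, had no peak in range in either library.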

How the data were processed

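ATAC-seq peaks of 2 of the 4 libraries of the series, 0 h and 72 h of BMP2, were compared. The submitters' processing notes name MACS2 (version 2.2.7.1), Bowtie2 (version 2.4.1), cutadapt (version 1.9.1), Picard (version 2.18.27), SAMtools (version 1.3.1), bedtools (version 2.26.0) and deepTools (version 3.5.4), with the mm10 build; whether reads were shifted for Tn5 or duplicates removed is not given in the sources used here. For each library the authors deposited peaks passing a p-value of 1e-05, peaks passing 1e-10, and enriched regions, as positions with names and no other values. Nearly all rows have one fixed length around a summit. Peak names carry the library, so peaks were called per library. All strict peaks also stand in the lenient lists.

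Peaks were shared if a lenient peak of the other library overlapped by 1 bp. Overlapping peaks of both libraries were merged into sites. Genes, starts and strands came from RefSeq tables of GRCm38.p6; exons were not resolved. A gene start was within 1 kb of a tabulated start or 5′ end. No test was run, with 1 library per group. The overlap code was tested on simulated peaks. Members and lists were chosen with earlier results of these data known; all 10 genes are named, and of the other pathway genes those with a strict peak of 1 library only, apart from Gdf2, Smad6 and Bambi, which were named after their values were seen, as were the shared sites strict in 1 library and the lenient sites placed singly. Alternatives covered window, overlap, threshold, merging and gene assignment. The work ran in Python 3.11.15 with pandas (version 2.3.3), SciPy (version 1.17.1), matplotlib (version 3.10.9) and numpy (version 2.4.6).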

Additional observations from a re-analysis of the deposited data

How the results depend on the processing

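Of 35 alternative values, 28 stayed within the counting interval of the main value (for counts, within 1.5 times it) and 7 moved. The 72 h-only share of 72 h peaks stayed between 22.9% (1e-10 lists in both libraries) and 40.0% (gene body only). The 0 h-only share of 0 h peaks went from 8.33% to 0% in the gene body, in the gene body with 10 kb, and with peaks given only to the nearest protein-coding gene. All 4 such peaks lay in the flanks, at 37.4 kb or more from the gene. With an overlap of at least 50% of the peak this share was 16.7%, with no genome share at that overlap to set beside it. Genes with a strict 72 h-only peak numbered 7 in place of 4 when only 1e-10 peaks of the other library counted as overlap, and genes with a strict 0 h-only peak 2 in place of 1. With 10 kb, or the nearest gene, the latter count was 0. Leaving out peaks at ends of other genes, an alternative chosen after seeing the data, gave 38.9% and 11.4% for the 72 h-only and 0 h-only shares. No paired analysis was possible because each group is 1 library. Depth is unknown, so a site of 1 library means a peak call present or absent, with no measured size of change.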
